A study of Mus musculus with 3 samples.

Results

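The cells described here are 284 CD8 T cells from the blood of melanoma-bearing mice that held at least 1 UMI (unique molecular identifier, a tag that marks 1 captured RNA molecule) of Gzmm and at least 1 of Tcf7. They held no UMI of Gzmk, Gzmb, Zeb2, S1pr5 or Igfbp4. They made up 5.02% (95% Clopper-Pearson interval 4.47 to 5.63) of the 5652 blood cells (PBMC, peripheral blood mononuclear cells) that passed the filters (500 genes or more, mitochondrial counts of 10% or less), and 18920 cells passed them in all 3 libraries. All intervals cover counting error only. The cells were thus chosen by measured UMIs of the 7 genes of the rule, so their values for those genes are a description and no result.

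The PBMC library came from C57BL/6 mice, labelled wild type, that carried B16.Gp tumours, a B16.F10 melanoma that expresses the glycoprotein of lymphocytic choriomeningitis virus (LCMV). Naive P14 cells, whose transgenic receptor recognises the GP33 peptide from that glycoprotein and which came from TCF-1-GFP reporter mice, had been transferred 8 days after the tumour cells. Blood (PBMC) and tumour-draining lymph nodes (TdLN) were taken at day 16 after transfer, and in both the sort took CD8 T cells that were CD45.1+ and CD44+. The Memory library held P14 cells from day 200 after acute LCMV infection, sorted as CD8 T cells positive for CD45.1, CD44 and CD127, among other markers, and negative for KLRG1 (KLRG1-), so Klrg1 and Il7r are partly set there by the gate. Each group was 1 library, and the number of mice behind it is not given in the sources used here. No p-value can be made for a difference between libraries or between classes of cells, and a class of cells has no replicate.

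TCF-1, the product of Tcf7, is a transcription factor that T cells need for development, and in mature CD8 T cells it marks naive, central memory and stem-like cells. Granzyme M, the product of Gzmm, is a serine protease of cytotoxic granules that is known from NK cells and innate-like T cells. A cell with both therefore joins a gene of the self-renewing end of the CD8 T cell range to a gene of the cytotoxic end. The 5 genes that had to be at 0 mark cytotoxic cells (Gzmk and Gzmb, granzymes K and B), terminal effector cells (Zeb2, a repressor, and S1pr5, a receptor for sphingosine 1-phosphate) and naive cells (Igfbp4, an insulin-like growth factor binding protein).

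The rule kept a minority of the cells with both transcripts. In PBMC 820 cells held both Gzmm and Tcf7, and 536 of them (65.4%) also held at least 1 of the 5 excluded genes. Gzmb was present in 283 of the 820, Gzmk in 257, Zeb2 in 190, Igfbp4 in 124 and S1pr5 in 112. Many members lay at the limit of the rule: Gzmm was read as exactly 1 UMI in 106 of the 284 cells (37.3%) and Tcf7 as exactly 1 in 64 (22.5%), while 120 and 145 cells held 3 or more. Just outside the rule were 978 cells with Tcf7 and no Gzmm, 64 cells with Gzmm and no Tcf7, and 114 cells with neither, all with the 5 excluded genes at 0.

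The Gzmm+ Tcf7+ cells were among the deeply read cells of the library. Their median was 12468 UMIs, against 6780 in the other 5368 PBMC cells, 12908 in 893 cells with Ccr7 and Igfbp4, 11462 in the 978 cells with Tcf7 alone, 6606 in 639 Gzmk positive cells and 5212 in 2385 cells positive for Zeb2 or S1pr5. Levels below are therefore CPM, a gene's summed counts in a class scaled by the total of that class in the usual way, with exact 95% Poisson intervals, and ratios carry exact conditional 95% intervals. The Gzmk class held no Zeb2 or S1pr5 UMI, and the Ccr7 and Igfbp4 class held none of Zeb2, S1pr5 or Gzmk. The PBMC library shared 15 filtered barcodes with TdLN, none of them a member, and 10 with Memory, 1 of them a member.

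The cells carried the transcripts of CD8 T cells. Cd3e, a chain of CD3, was at 308 CPM (290 to 327) against 397 in the other PBMC cells, and Cd8a at 256 CPM (240 to 274) against 340 (log2 ratio -0.41). Some genes on the lists of other lineages were at 0 in the summed counts of the 284 cells. Among them were Cd4, Foxp3 and Cd40lg of the CD4 list, Cd79a and Ms4a1 of the B cell list, and C1qa and C1qb of the macrophage list. Ncr1, Klra8 and Klra4 of the NK list, Sox13 of the gamma delta list and all 6 neutrophil genes were at 0 as well. The neutrophil genes had no count in the other PBMC cells either, and for the remaining genes that level is not given here. Other genes of these lists were read. The B cell list summed to 114 CPM in members against 107 in the other cells, most of it Ighm, at 99.8 CPM against 88.0 and at 147 in cells with Tcf7 alone. An Ighm UMI was found in 60.9% of members and 34.7% of the other cells, and after thinning in 31.4% (26.0 to 37.2) and 21.1% (19.99 to 22.3). The macrophage, monocyte and dendritic list summed to 94.4 CPM against 123, of which Cst3 gave 82.7 and 90.7, and the NK and innate lymphoid list to 52.3 against 61.5. The gamma delta list summed to 348 CPM against 276 and the CD4 list to 5.40 against 11.1. The part of such RNA in the results was not tested. A gene with no count there could still have been at up to 0.853 CPM, the level of 3 counts, which is the one-sided 95% limit for a count of 0. The 9 erythroid and platelet genes summed to 14.2 CPM, against 38.0 in the other cells. Trdc, the delta receptor constant gene, was at 300.5 CPM against 246 in the other cells and 386 in cells with Tcf7 alone.

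Fcgrt stood out most among the well-expressed genes. It encodes the heavy chain of the neonatal Fc receptor, which recycles IgG and albumin in endosomes. Its level was 83.9 CPM (74.6 to 94.0) in Gzmm+ Tcf7+ cells, 36.9 in Zeb2 or S1pr5 positive cells, 31.2 in Gzmk positive cells, 23.4 in Ccr7 and Igfbp4 positive cells and 22.3 in cells with Tcf7 alone. The level in the members was thus above that of each of the 4 classes, and no interval of a log2 ratio reached 0. The log2 ratio was 1.49 (1.31 to 1.68) over all other PBMC cells, 1.19 (0.98 to 1.39) over the Zeb2 or S1pr5 class, 1.42 (1.14 to 1.72) over the Gzmk class and 1.91 (1.66 to 2.16) over cells with Tcf7 alone. The 64 cells with Gzmm alone had 74.9 CPM, close to the members, and the 114 cells with neither had 17.0 CPM.

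Read per cell, 47.9% of members held an Fcgrt UMI, against 16.5% of the other cells. After each cell was thinned to 4200 UMIs the shares were 27.8% (22.6 to 33.5) of 277 members, 11.97% (10.6 to 13.5) of the Zeb2 or S1pr5 class, 11.4% (8.97 to 14.2) of the Gzmk class, 7.78% (6.15 to 9.69) of cells with Tcf7 alone and 6.29% (4.79 to 8.09) of the Ccr7 and Igfbp4 class. The order was that of the CPM values except for the 2 lowest classes, whose intervals overlapped. Thinning left out 7 members and 497 other cells that were shallower than 4200 UMIs. No class in this gate is known to lack Fcgrt, so the share set by free RNA was not measured for it.

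Klrc2 and Samd3 were the other 2 markers given for these cells. Klrc2 encodes NKG2C, an activating NK receptor, and Samd3 a protein with a sterile alpha motif. Samd3 was at 66.2 CPM (58.0 to 75.3) in members and 41.3 in the other cells, a log2 ratio of 0.68 (0.48 to 0.88). It was 58.6 CPM in the Zeb2 or S1pr5 class and 56.8 in the Gzmk class, and both log2 ratios, 0.18 (-0.04 to 0.39) and 0.22 (-0.04 to 0.48), had intervals that included 0. Klrc2 went against its use as a marker over the whole library: members had 40.1 CPM (33.7 to 47.3) and the other PBMC cells 55.5, a log2 ratio of -0.47 (-0.72 to -0.22). Its level was 127 CPM in the Zeb2 or S1pr5 class and 71.0 in the Gzmk class, but 11.1 in cells with Tcf7 alone and 3.2 in the Ccr7 and Igfbp4 class. When only cells whose beta chain V UMIs were all Trbv13-3 were compared, an alternative described below, the log2 ratio of Klrc2 was 0.80, and with the other cells weighted to the depth of the members it was 0.65. Klrc1 and Klrc2 are near-identical neighbours on chromosome 6 and may share reads.

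The 3 markers outside the rule lie at chr7:45092990-45103851 (Fcgrt, minus strand), chr6:129647496-129660689 (Klrc2, minus strand) and chr10:26229707-26272172 (Samd3, plus strand) in mm10, as GENCODE M21 places them. Their promoters are shown because these genes were higher together in Gzmm+ Tcf7+ cells than in cells with Tcf7 alone. Each RefSeq sequence (GRCm38.p6) runs 5′ to 3′ from 250 bases before the start that the RefSeq promoter table uses to 50 after it. That start lies 29 bases downstream of the GENCODE 5′ end for Fcgrt, 93 for Klrc2 and 0 for Samd3, and Klrc2 has 2 such entries, of which the first is printed. Capitals mark matches on either strand to TGTGGT (the core bound by RUNX factors) or AGGTGTNA (T-box factors such as those encoded by Eomes and Tbx21); CTTTGA (TCF and LEF factors) was searched as well.
Fcgrt, chr7:45103773-45104072, minus strand: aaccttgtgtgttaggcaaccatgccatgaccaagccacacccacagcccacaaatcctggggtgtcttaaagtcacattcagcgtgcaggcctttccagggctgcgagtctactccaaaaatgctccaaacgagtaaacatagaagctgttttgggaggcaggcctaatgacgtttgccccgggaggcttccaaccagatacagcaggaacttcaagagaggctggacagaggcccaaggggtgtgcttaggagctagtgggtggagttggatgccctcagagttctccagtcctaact
Klrc2, chr6:129660547-129660846, minus strand: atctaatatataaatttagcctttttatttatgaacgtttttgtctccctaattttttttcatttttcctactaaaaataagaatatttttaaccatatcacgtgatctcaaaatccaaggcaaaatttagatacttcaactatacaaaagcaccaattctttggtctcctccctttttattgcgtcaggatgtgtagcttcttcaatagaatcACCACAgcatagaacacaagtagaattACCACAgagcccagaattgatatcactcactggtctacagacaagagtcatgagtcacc
Samd3, chr10:26229457-26229756, plus strand: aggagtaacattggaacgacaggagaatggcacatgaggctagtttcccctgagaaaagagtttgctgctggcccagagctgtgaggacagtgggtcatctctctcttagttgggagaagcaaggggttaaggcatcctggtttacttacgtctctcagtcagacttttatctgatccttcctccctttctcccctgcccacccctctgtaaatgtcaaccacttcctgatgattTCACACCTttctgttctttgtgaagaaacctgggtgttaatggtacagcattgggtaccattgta
The Klrc2 promoter held 2 RUNX matches that begin 36 and 9 bases before the RefSeq start, thus within the longer GENCODE gene, and the Samd3 promoter 1 T-box match that begins 15 bases before it. The Fcgrt window held none of the 3 motifs. Of 32851 mouse promoters of this length, 16.8% held the RUNX letters, 3.03% the T-box letters and 16.0% the TCF and LEF letters, and a match is only a run of letters.

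Among all 4252 genes at 20 CPM or more in the higher group, the level in members was at least 2-fold that in the other PBMC cells for 8 (0.188%), and at least 2-fold below it for 54 (1.27%). Over the 4252 genes the log2 ratio had a median of -0.16, so a gene near -0.16 was typical. Scaling by TMM factors moved that median to -0.01 and gave 13 genes higher and 41 lower. The 8 higher genes were Cd163l1, Xcl1, Qrfp, Fcgrt, Gpr183, Itm2a, Ifngas1 and F2rl1. Of these Cd163l1, Qrfp, Itm2a, Ifngas1 and F2rl1 fell outside the naming rule and were singled out after their values were seen. The other cells are mostly those that the rule set aside for Zeb2, S1pr5, Gzmk or Gzmb, and how far the rule itself set which genes were low was not tested.

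Gpr183, the oxysterol receptor EBI2 that guides lymphocytes within lymphoid organs, was at 126 CPM (114 to 138) against 55.2 in the other cells. Among the classes the Gzmk class had 89.7 CPM, cells with Tcf7 alone 68.6, the Ccr7 and Igfbp4 class 55.4 and the Zeb2 or S1pr5 class 26.2. Gpr183 was thus higher in members than in each of these 4 classes, with log2 ratios from 0.49 (0.29 to 0.68) to 2.26 (2.06 to 2.47). Only the 64 cells with Gzmm alone had more, at 146 CPM. Itm2a, a membrane protein of activated T cells, was at 35.0 CPM against 15.4 (log2 ratio 1.18, 0.89 to 1.46), and at 35.6 CPM in the cells with Gzmm alone. Ifngas1, a long noncoding RNA beside Ifng, was at 37.8 CPM (31.7 to 44.8) against 16.8, while Ifng itself was at 6.54 CPM against 31.6.

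Xcl1 encodes lymphotactin, the chemokine that draws cross-presenting dendritic cells. It was at 21.6 CPM (17.0 to 27.0) in members and 5.34 in the other cells, a log2 ratio of 2.02 (1.62 to 2.39). Its highest level was 43.0 CPM in the cells with Gzmm alone, and it was 6.6 CPM in cells with Tcf7 alone and 2.3 in the Zeb2 or S1pr5 class. Cd163l1, a scavenger receptor family gene, had the highest ratio of all: 26.7 CPM (21.6 to 32.7) against 4.07, a log2 ratio of 2.72 (2.34 to 3.08). A UMI of it was found in 13.7% of members and 1.99% of the other cells. After thinning these shares were 8.30% (5.34 to 12.2) and 1.05% (0.78 to 1.37), and 1 of 596 Gzmk positive cells held one (0.17%). The members' Cd163l1 counts sat in few cells, the highest with 10 UMIs.

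**Figure D1:**
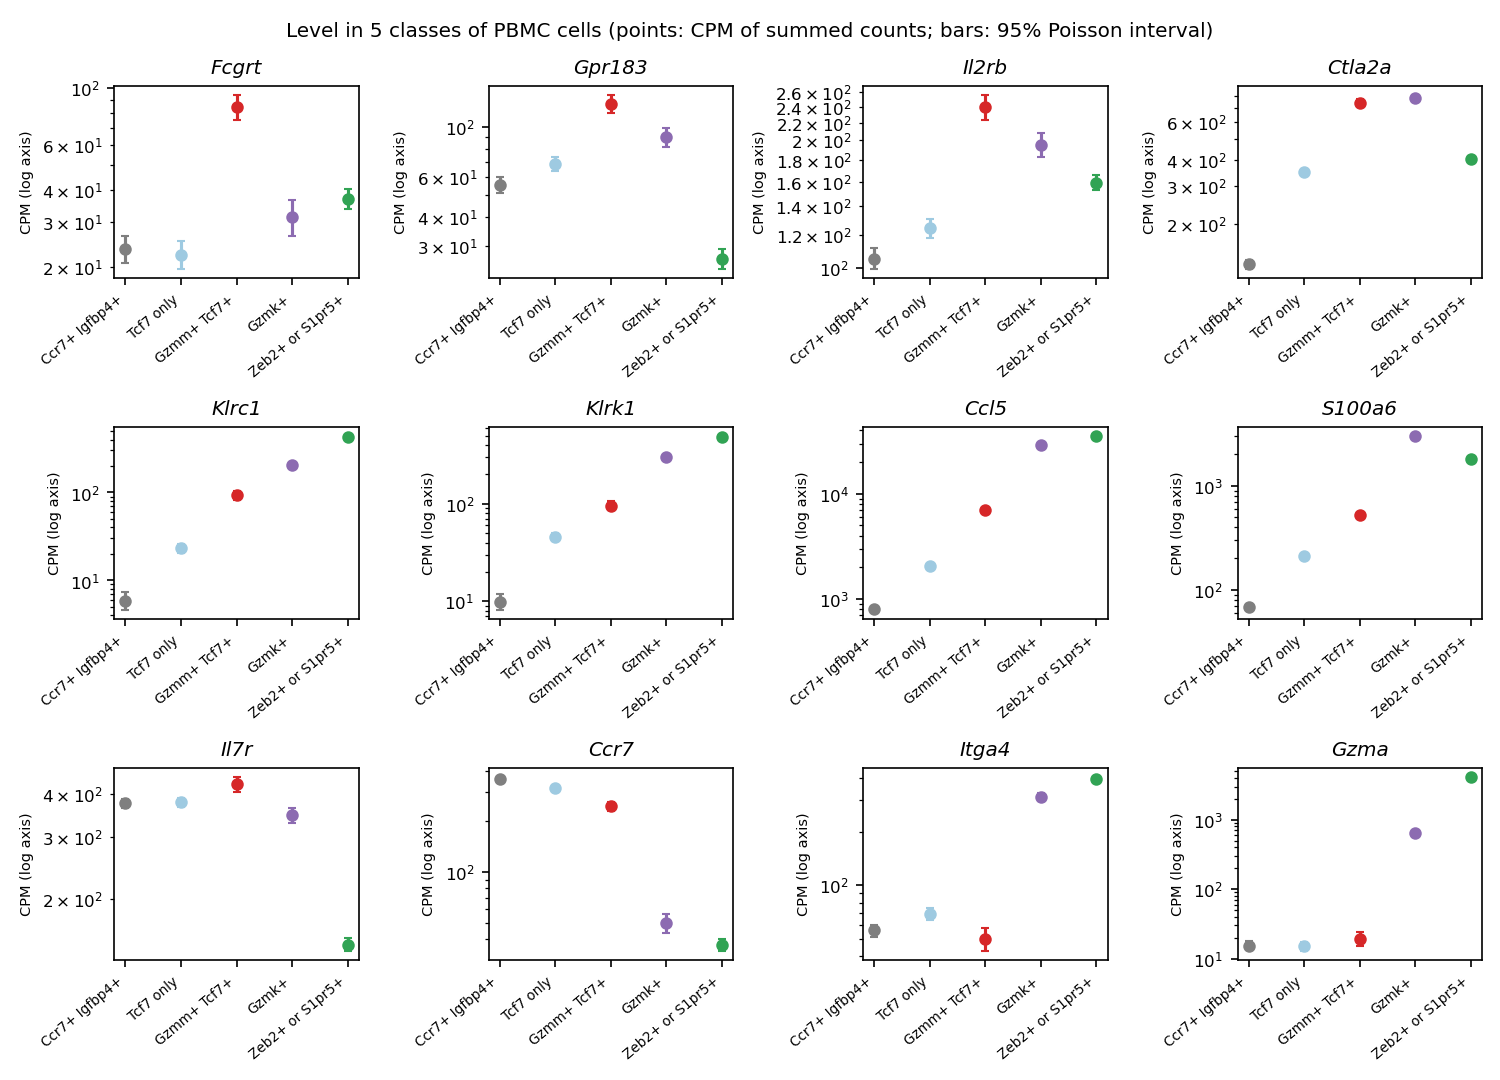
Level of 12 genes in 5 classes of PBMC cells, in CPM of summed counts on a log axis, with 95% Poisson intervals as bars. Fcgrt, Gpr183 and Il2rb are highest in the Gzmm+ Tcf7+ cells, whereas Klrc1, Klrk1, Ccl5 and S100a6 lie between the Tcf7-bearing classes on the left and the Gzmk and Zeb2 or S1pr5 classes on the right.

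The 15 genes with the highest ratios at 50 CPM or more included Il2rb, Bcl2 and Bcl2l11. Il2rb, the beta chain shared by the receptors for IL-2 and IL-15, was at 239 CPM (223 to 256) against 145, and it was higher than in each of the 4 classes of the plot (log2 ratios 0.29 to 1.18). Bcl2, which protects against apoptosis, was at 411.0 CPM against 276, and Bcl2l11, which encodes the apoptosis inducer BIM, at 51.7 against 32.7. The log2 ratios of both, 0.57 (0.49 to 0.65) and 0.66 (0.43 to 0.88), were below 1. The list of cytokine receptor and signalling genes as a whole had 8 of 14 higher and 6 lower than in the other cells, none at least 2-fold higher and 1 at least 2-fold lower, with a median of 0.13. Ctla2a, a cysteine protease inhibitor, was at 743 CPM against 379, and at 785 in the Gzmk class. Sh3bp5 had 70.2 CPM against 35.3, Tnfsf8 (CD30 ligand) 54.9 against 33.2, Fam46c 53.2 against 30.3, Lyst 57.1 against 35.1, Kbtbd11 83.3 against 52.9, Nr3c1 (the glucocorticoid receptor) 53.7 against 34.9, Nsg2 83.9 against 57.0 and Dennd4a 66.8 against 46.0.

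These genes separated into those that members shared with Tcf7-bearing cells and those that they did not. Sh3bp5 was at 57.5 CPM in the Ccr7 and Igfbp4 class, Tnfsf8 at 56.5 and Nsg2 at 97.0, and the Zeb2 or S1pr5 class had 12.8, 6.7 and 12.3 CPM of these genes. The members were thus at or below the level of the Ccr7 and Igfbp4 class for Tnfsf8 and Nsg2. For Fcgrt, Gpr183, Il2rb, Ctla2a, Lyst, Nr3c1, Dennd4a and Samd3, the log2 ratio over cells with Tcf7 alone was 0.61 or more. Lyst, a regulator of lysosome traffic, was at 36.1 CPM in cells with Tcf7 alone and at 33.3 to 35.7 in the other 3 classes.

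The lower side was led by Gzma, Klrg1 and Cx3cr1. Of 9 terminal effector genes at 20 CPM or more besides the rule genes, 8 were lower and 7 at least 2-fold, with a median of -1.26. Gzma, granzyme A, was at 19.3 CPM (15.01 to 24.5) in members and 1392 in the other cells, a log2 ratio of -6.17 (-6.54 to -5.83). It was 4119 CPM in the Zeb2 or S1pr5 class and 652 in the Gzmk class, but 14.98 in cells with Tcf7 alone and 15.3 in the Ccr7 and Igfbp4 class, so the members were at the level of the Tcf7-bearing cells. Klrg1, an inhibitory receptor of terminal effectors, had 7 counts in all 284 cells (1.99 CPM against 72.2), and Cx3cr1, the fractalkine receptor, had 15 (4.26 CPM against 127). Itga4, the alpha 4 chain of the integrin VLA-4, was at 49.7 CPM (42.6 to 57.7) against 199.6. It was lower than in every other class described except the Ccr7 and Igfbp4 class, for which the log2 ratio was -0.16 (-0.41 to 0.08). The other low genes were Lgals3 (-3.27), S100a4 (-2.93), Rora (-2.25), Ccl4 (-1.75), Lgals1 (-1.59), Ccr2 (-1.47), Il18rap (-1.35), Ccl5 (-1.21), Bcl2a1b (-1.20), Cxcr6 (-1.20) and Klrk1 (-1.18), as log2 ratios over all other PBMC cells.

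Several of those low ratios turned with the make-up of the cells compared. When the other cells were weighted so that their depths matched those of the members, Ccl5 had a log2 ratio of 0.23, Klrk1 of 0.12, Cxcr6 of 0.066, Klre1 of 0.53 and S100a6 of 0.058, and 7 genes in place of 54 were at least 2-fold lower. Gzma (-4.34), Klrg1 (-3.25), Cx3cr1 (-3.10) and S100a4 (-1.41) kept their side, as did Fcgrt (1.54), Gpr183 (0.99), Il2rb (0.81) and Samd3 (0.997). Among cells whose beta chain V UMIs were all Trbv13-3, 80 members and 877 others, Ccl4 (0.069), Ccl5 (0.16), Bcl2a1b (0.15), Cxcr6 (0.19), Klrk1 (0.20), Tbx21 (0.28), Klre1 (0.33) and S100a6 (0.063) were no longer lower, while Fcgrt was at 1.73, Gzma at -4.11 and Itga4 at -1.28. Klrc1, at -0.94 over all other PBMC cells, was at 0.55 and 0.58 under these 2 settings.

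Against the Tcf7-bearing cells Ccl5, Klrk1, Klre1 and Ccr2 read the other way, while Itga4 stayed lower in members, at 49.7 CPM against 69.0 in cells with Tcf7 alone (log2 ratio -0.47, -0.72 to -0.23). Over cells with Tcf7 alone, which differ from members by the Gzmm UMI and have a near-equal depth, members had 26 of 3999 genes (0.65%) at least 2-fold higher and 9 (0.225%) lower. The higher ones were led by Klre1, Cd163l1 and Ccr2. Klre1, a lectin-like NK receptor, was at 34.4 CPM (28.5 to 41.1) against 4.5, a log2 ratio of 2.94 (2.45 to 3.45). Klrc1, the inhibitory receptor NKG2A, was at 92.7 CPM (82.9 to 103) against 23.1, and Klrk1, the activating receptor NKG2D, at 95.8 CPM (85.8 to 107) against 45.9. Ccr2, a receptor for inflammatory chemokines, was at 27.9 CPM against 6.9, and Ccl5, itself such a chemokine, at 6985 CPM against 2056.

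The NK receptor list had 7 genes at 20 CPM or more in this comparison, besides the rule genes. It holds Klrc2 and Samd3, which were also given as markers of these cells, so it is not independent of how they were described. All 7 were higher in members and 6 (Klrc1, Klrc2, Klre1, Klrk1, Cd160 and Samd3) were at least 2-fold higher, with a list median of 1.23 against 0.00 for all 3999 genes. At least Klre1 (34.4 CPM against 4.5) and Klrc2 (40.1 against 11.1) reached 20 CPM only in members, so that limit fixed their side. The count of higher genes and the median rest in part on it. Without the limit, the 22 genes of the list summed to 742 CPM in members against 482. The virtual memory and IL-15 linked list, which holds Fcgrt and Ccl5 as well, had 12 of 15 higher and 3 at least 2-fold, with a median of 0.61. Over all other PBMC cells the same list had 7 higher and 9 lower, 5 past 2-fold on the lower side, and a median of -0.12. Its median was -0.43 over the Zeb2 or S1pr5 class and -0.46 over the Gzmk class, beside -0.45 and -0.30 for all genes. Over cells with Tcf7 alone, Cd44 was at 60.0 CPM against 36.0, Cxcr3 at 107 against 69.8, Il18r1 at 114 against 63.8, Eomes at 43.8 against 30.9 and Ly6c2 at 1328 against 1022. Cxcr3 and Ly6c2 were chosen after their values were seen, and Ly6c2 may share reads with Ly6c1. Of 14 naive T cell genes 11 were lower, with a median of -0.28 and Dapl1 alone past 2-fold (297 CPM against 621). Lef1, the partner of TCF-1, was at 128 CPM against 190, and Ccr7 at 246 against 318.

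The type I interferon response genes lay on the low side in that comparison. All 17 measured genes were lower in members than in cells with Tcf7 alone, with a median of -0.32. Isg15 was the only 1 past 2-fold, at 22.5 CPM (17.8 to 28.0) against 46.1. Cells of the cluster led by interferon genes, cluster 4 of the clustering described below, were 152 of the 978 cells with Tcf7 alone (15.5%) and 16 of the 284 members (5.63%), and the part of that cluster in the shift was not tested. Against all other PBMC cells 15 of 16 were lower, with a median of -0.19 beside -0.16 for all genes, so no shift beyond the typical gene was seen there. Of 6 cell division genes 2 were higher and 4 lower than in cells with Tcf7 alone, with a median of -0.03. The cluster led by cell division genes, cluster 5, nevertheless held 154 of the 978 cells with Tcf7 alone (15.7%) and 14 members (4.93%).

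Compared with the Ccr7 and Igfbp4 class, members had 50 of 3932 genes (1.27%) at least 2-fold higher and 8 (0.203%) lower. The 7 measured genes of the NK receptor list, Klrc2 and Samd3 among them, were again all higher. Of these 6 were past 2-fold, with a list median of 3.28 beside 0.09 for all genes. At least Klre1, Klrc1, Klrc2 and Klrk1 reached 20 CPM only in members, so that limit fixed their side and much of the median. Without the limit, the 22 genes of the list summed to 742 CPM in members against 326. Klre1 was at 34.4 CPM against 1.7, Klrc1 at 92.7 against 5.9 and Ccl5 at 6985 against 798. S100a6, a calcium-binding protein that is high in antigen-experienced T cells, was at 523 CPM (499.7 to 548) against 68.3. Il7r, the IL-7 receptor alpha chain, was at 425 CPM (404 to 447) against 376, a log2 ratio of 0.18 (0.09 to 0.26). Igfbp4 and Ccr7 chose that class, and Igfbp4 also kept cells out of the members.

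Compared with the Zeb2 or S1pr5 class, members had 93 of 4753 genes (1.96%) past 2-fold on the higher side and 493 (10.4%) on the lower, with a median of -0.45 over all genes. Ccr7, the receptor that guides T cells into lymph nodes, was at 246 CPM against 37.0 and Il7r at 425 against 148. Of 14 naive T cell genes 12 were higher and 10 at least 2-fold, with a median of 1.74. All 13 granzyme and cytotoxic genes were lower (9 past 2-fold, median -1.99), as were all 15 S100, annexin and galectin genes (12 past 2-fold, median -1.68). Over the Gzmk class, 42 of 4487 genes (0.936%) were past 2-fold on the higher side and 213 (4.75%) on the lower. There S100a4 was at 77.3 CPM against 1294, Lgals3 at 12.8 against 242 and Cxcr3 at 107 against 220, while Ccr7 was at 246 CPM against 49.6. Cells with Zeb2, S1pr5 or Gzmk were kept out by the rule, and the members were the deeper cells in both comparisons.

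**Figure D2:**
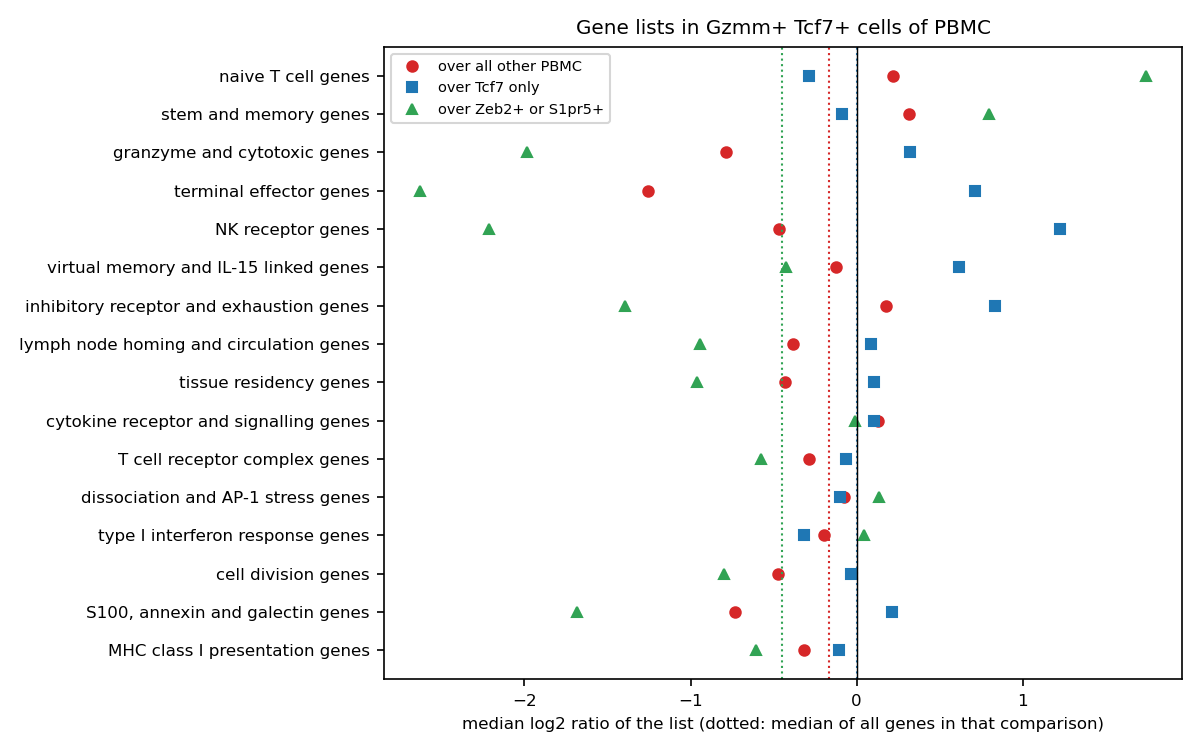
Median log2 ratio of 16 gene lists in Gzmm+ Tcf7+ cells over 3 groups of PBMC cells, with the median of all genes of each comparison as a dotted line. NK receptor genes sit at 1.23 over cells with Tcf7 alone and at -2.22 over the Zeb2 or S1pr5 class, and naive T cell genes at -0.28 and 1.74. Only genes at 20 CPM or more in the higher group enter, and that limit fixed the side of some of them.

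The cells just outside the rule on the Gzmm side, with Gzmm and no Tcf7, were nearer to the cytotoxic classes. Members had 69 of 4346 genes (1.59%) at least 2-fold higher and 135 (3.11%) lower than these 64 cells, whose median depth was 7571 UMIs. The 64 cells held 534262 UMIs in all, so a count of 0 there allows up to 5.62 CPM. Many of these calls can thus rest on few counts, and the 2 leading higher genes, Ifit1 and Ikbke, had 2 counts each there. S100a4 was at 77.3 CPM in members and 429 in those cells, Gzma at 19.3 and 212, and Ccr2 at 27.9 and 97.3. Fcgrt, Cd163l1, Itm2a and Qrfp had similar levels in both, and the interval of the log2 ratio of Cd163l1, 0.14 (-0.71 to 1.10), was wide. Over the 114 cells with neither gene, 26 of 4243 genes (0.613%) were higher and 76 (1.79%) lower. Those cells held 823263 UMIs in all, so the same limit applies. The lower side was led by Clec1b (2.56 CPM against 71.7) and the platelet gene Pf4 (7.96 against 89.9). The erythroid and platelet list summed to 14.2 CPM in members against 147 in the cells with neither gene. The part of platelet RNA in these calls was not tested.

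Gzmm chose the members, so a split of them by Gzmm UMIs is a description and no result, and its values are given without intervals. The 106 cells with 1 Gzmm UMI and the 178 with 2 or more had median depths of 12454 and 12518 UMIs. Fcgrt was at 53.4 CPM in the first and 101 in the second, Klrc1 at 55.0 and 114, Klrc2 at 25.9 and 48.1, Gpr183 at 91.9 and 145, Samd3 at 50.3 and 75.3, and Ccl5 at 5324 and 7928. Ccr7 (256 and 240 CPM) and Ly6c2 (1228 and 1385) differed less. In cells with Tcf7 alone Fcgrt was at 22.3 CPM.

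A smaller part of the members lacked Ccr7 UMIs. In these 55 cells, of median depth 9026, S100a4 was at 417 CPM, S100a6 at 1478, Ccl5 at 14493 and Itga4 at 152. In the 229 cells with Ccr7, of median depth 12911, S100a4 was at 20.9 CPM, S100a6 at 365, Ccl5 at 5739 and Itga4 at 32.8. Fcgrt was at 97.8 and 81.5 CPM, and Tcf7 at 238 and 258. Depth moves with this split, and its part in the difference was not tested.

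Clustering of the PBMC cells without the 7 rule genes put most members together. Of the 284 cells, 185 (65.1%) fell in cluster 3, which held 9.52% of the other cells, and members made up 26.6% of its 696 cells. The genes that led cluster 3 over the remaining PBMC cells were Fcgrt, Gpr183, Sh3bp5, Ctla2a, Il2rb, Samd3, Bcl2l11, Tnfsf8, Dennd4a and Lyst. Cluster 1, led by Actn1 and Ccr7, held 40 members (14.1%). Cluster 2, led by Tcrg-C2, Serpina3g, Ier3 and S100a6, held 21 (7.39%), cluster 4, led by the interferon genes Ifit1 and Isg15, 16, and cluster 5, led by the cell division genes Birc5 and Ube2c, 14. Cluster 7, led by platelet genes, held 7 members, cluster 0, led by Klra9, Gzma and Klrg1, 1, and cluster 6, led by Pdcd1, none.

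**Figure D3:**
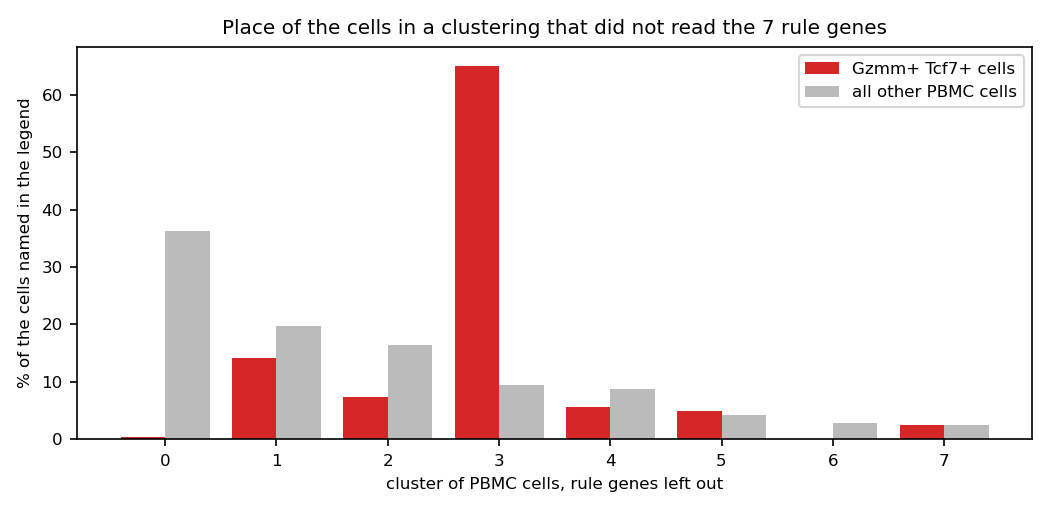
Share of Gzmm+ Tcf7+ cells (red) and of all other PBMC cells (grey) in each of 8 clusters made without the rule genes, in percent of the cells named in the legend. Cluster 3 holds 65.1% of the members and 9.52% of the other cells, and cluster 0 0.352% and 36.2%.

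The members of different clusters were unlike each other. Those in cluster 3 had Fcgrt at 107 CPM, Ccl5 at 7987, Klrc1 at 115, Ccr7 at 244 and S100a4 at 25.6. The 40 members in cluster 1 had Fcgrt at 43.9 CPM, Ccl5 at 1358, Klrc1 at 3.8, Ccr7 at 342 and S100a4 at 9.6, so that Klrc1 was near the 5.9 CPM of the Ccr7 and Igfbp4 class. The 21 members in cluster 2, of median depth 7042 UMIs, had Fcgrt at 48.6 CPM, Ccl5 at 27000, Klrc1 at 271, Ccr7 at 6.9, from 1 count, and S100a4 at 1374. Tcf7 was at 251 to 258 CPM in all 3, and Gzmm at 303, 143 and 493 CPM in clusters 3, 1 and 2.

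The receptor segments were read next, since P14 cells bear a known receptor made of Trav14 and Trbv13-3. In members 154 of 190 beta chain V segment UMIs were Trbv13-3 (81.1%, 74.7 to 86.4), spread over 90 cells. The other PBMC cells had 67.5% (65.4 to 69.6) of 1924 UMIs. By class the share was 91.0% (88.2 to 93.2) in cells with Tcf7 alone, 89.0% (85.7 to 91.8) in the Ccr7 and Igfbp4 class, 48.5% (41.3 to 55.7) in the Gzmk class and 35.4% (31.5 to 39.5) in the Zeb2 or S1pr5 class. The members lay below the Tcf7-bearing classes and above the cytotoxic ones, with an interval that met that of the Ccr7 and Igfbp4 class only at its edge. Trav14 gave 67.3% (60.4 to 73.7) of 202 alpha chain V UMIs in members and 53.8% (52.0 to 55.6) of those in the other cells. UMIs of 1 cell are not independent, and 3′ libraries read few V segments.

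Within the members the share differed between clusters. It was 90.6% of 32 UMIs in cluster 1, 77.8% (69.8 to 84.5) of 135 in cluster 3 and 0 of 3 in cluster 2, which allows up to 70.8%. In 80 members all beta V UMIs of the cell were Trbv13-3, and 20 members held other segments only. Fcgrt was at 81.0 CPM in the former and 120 in the latter, Il2rb at 259 and 271, Klrc1 at 89.7 and 154, S100a4 at 26.0 and 169, and Cd163l1 at 25.1 and 3.8. Members with and without the P14 beta segment thus both had high Fcgrt and Il2rb.

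**Figure D4:**
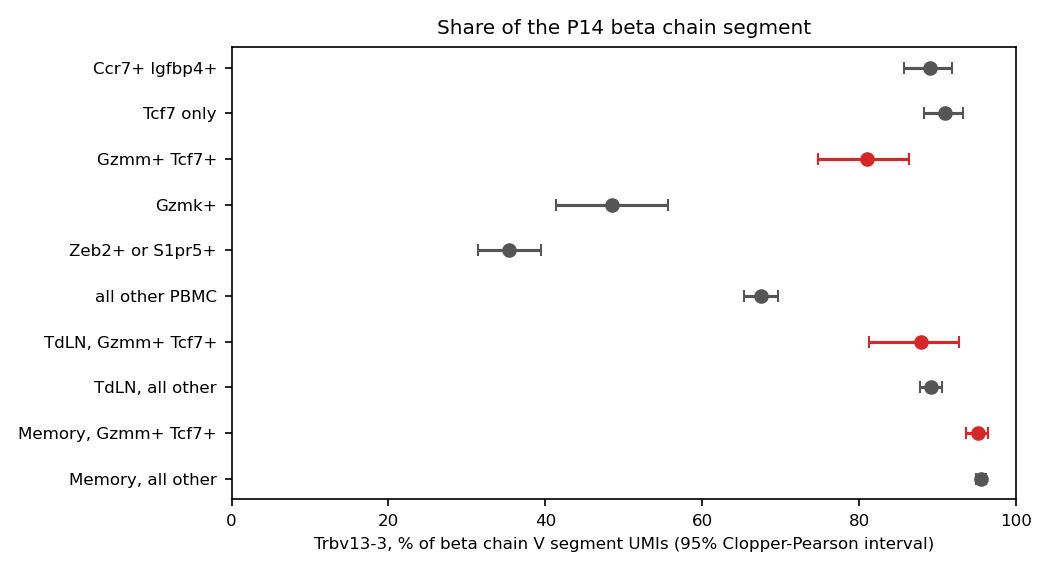
Share of Trbv13-3 among beta chain V segment UMIs, in percent with 95% Clopper-Pearson intervals, for classes of PBMC cells and for the rule cells and all other cells of the TdLN and Memory libraries. The Gzmm+ Tcf7+ cells of PBMC (red) lie at 81.1%, between 91.0% in cells with Tcf7 alone and 35.4% in the Zeb2 or S1pr5 class.

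The same rule was applied to the libraries that had no part in choosing it. In TdLN 352 of 6265 cells (5.62%) met it and in Memory 1169 of 7003 (16.7%). In TdLN, the rule cells had 25 of 4618 genes (0.541%) at least 2-fold higher than the other cells and 19 (0.411%) lower. Fcgrt was at 68.4 CPM against 20.6 there, a log2 ratio of 1.73 (1.55 to 1.91). Samd3 was at 75.1 CPM against 30.2, Klrc2 at 31.7 against 8.3, Klrc1 at 57.4 against 14.7, Il2rb at 262 against 138 and Ctla2a at 726 against 346. Fcgrt, Il2rb, Ctla2a and Samd3 were therefore higher in the rule cells of both tissues, and Klrc2 and Klrc1 in TdLN and, in PBMC, over the Tcf7-bearing classes.

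Not every gene carried over. Of the 8 genes at least 2-fold higher in PBMC, 6 reached 20 CPM in TdLN and all 6 were on the higher side, but only Fcgrt was past 2-fold. F2rl1 (23.2 CPM against 15.2) and Ifngas1 (25.5 against 13.3) reached that limit only in the rule cells, so it fixed their side. Of the 54 genes at least 2-fold lower in PBMC, 28 reached 20 CPM in TdLN, 8 of them were on the lower side there and none past 2-fold, with a median of 0.24. Some of the 28, Ccr2 among them, likewise reached 20 CPM only in the rule cells. Sh3bp5 had 35.5 CPM in the rule cells of TdLN against 37.8, and Xcl1 57.4 against 47.1. Cd163l1 was at 12.96 CPM against 2.15, below the limit of 20 CPM, with a log2 ratio of 2.59 (2.12 to 3.04). Ccl5 was at 2639 CPM in the rule cells of TdLN against 614, Ccr2 at 21.9 against 4.36 and S100a6 at 323 against 105, so these genes were higher there and lower in PBMC. The TdLN library held 131 cells with Zeb2 or S1pr5 and 137 with Gzmk alone, beside 2385 and 639 in PBMC. In the lymph node the 4 macrophage and dendritic genes above 20 CPM were lower in the rule cells (median -3.21), and the summed level of that list was 108 CPM against 313. The part of any of these cells in the TdLN ratios, or in their difference from PBMC, was not tested.

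In Memory the rule picked cells that hardly differed from the others. No gene of 4198 (0%) was at least 2-fold higher and 4 (0.0953%) were lower, and the median over all genes was -0.01. Of the 4 lower genes 2 belonged to the B cell list, which summed to 105 CPM in the rule cells against 289. Fcgrt was at 39.3 CPM against 35.6 (log2 ratio 0.14, with an interval that included 0), Il2rb at 187 against 186, Klrc1 at 99.0 against 105, Samd3 at 50.3 against 47.0 and Ccl5 at 12165 against 12565. Memory cells as a whole held Gzmm at 76.0 CPM in the cells outside the rule, against 11.8 in TdLN. Cd163l1 had no count in 1169 rule cells of Memory. The gate of the Memory library removed KLRG1+ cells, and the time and the infection differ from the tumour libraries. The tissue of the Memory cells is not given in the sources used here. The parts of the gate, time, infection and tissue cannot be told apart.

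**Figure D5:**
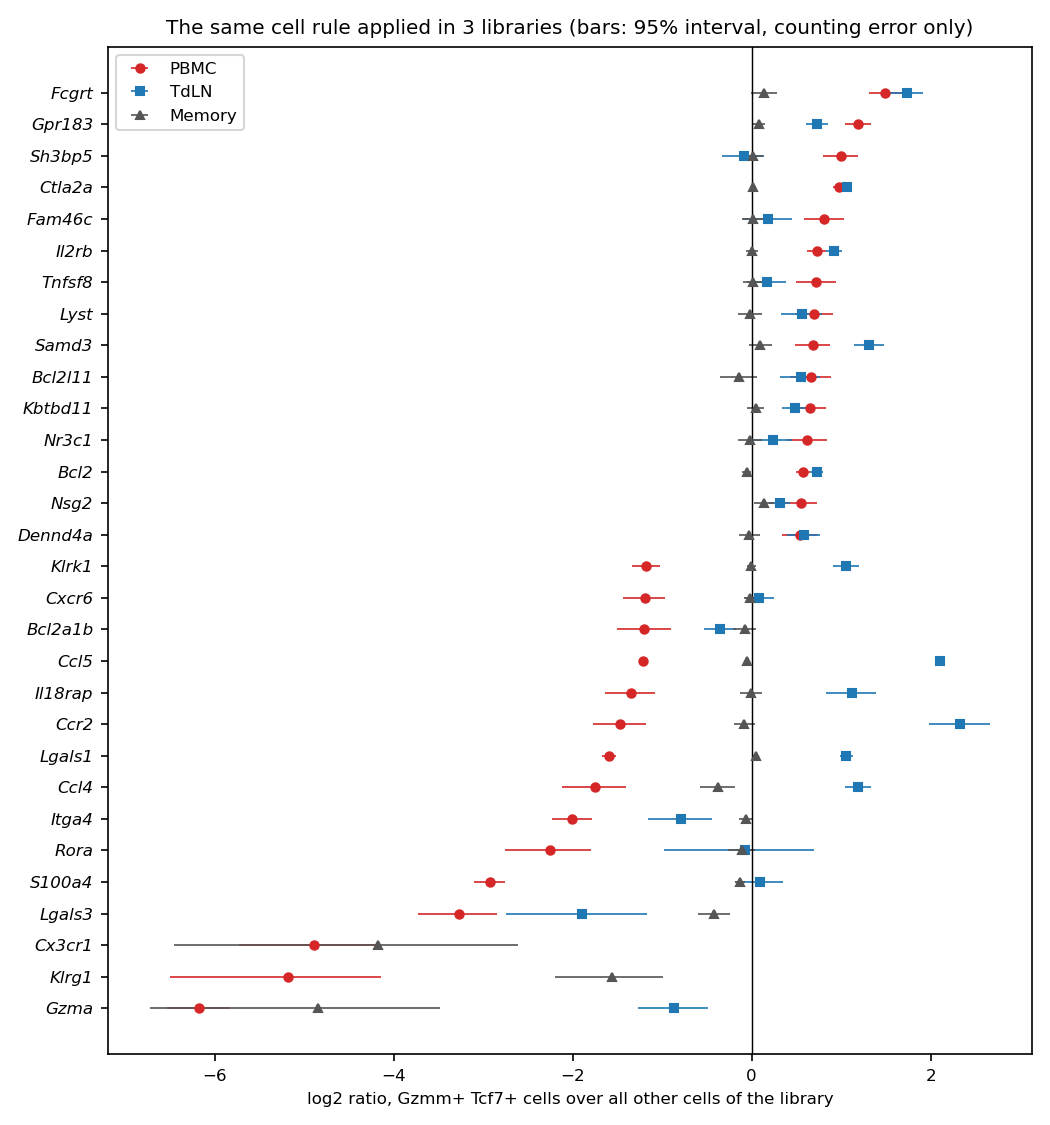
Log2 ratio of the rule cells over all other cells of the same library for the 15 genes with the highest and the 15 with the lowest ratio in PBMC, with 95% intervals for counting error, in PBMC (circles), TdLN (squares) and Memory (triangles). Fcgrt lies at 1.49 in PBMC, 1.73 in TdLN and 0.14 in Memory, and ratios that rest on under 3 counts in the rule cells, those of Klrg1 and Cx3cr1 in TdLN, are not drawn.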

How the data were processed

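Single-cell 3′ RNA sequencing (10x Genomics Chromium, per the labels' protocols) was read in 3 libraries. The deposited values are raw UMI counts per gene and cell barcode, for which the submitters' processing notes name Cell Ranger 3.1.0 and mm10. The TdLN matrix held 7503 called barcodes and 72062695 counts, the PBMC matrix 6165 and 49592338, and the Memory matrix 8321 and 72283532. Of 31053 genes, 30934 were placed with GENCODE M21 (GRCm38, the assembly of mm10). Counting was at the 3′ end, so isoforms and whole receptors cannot be read.

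Cells needed 500 genes or more and mitochondrial counts of 10% or less, which left 48987260 counts in PBMC. Counts were summed over the cells of a class and divided by the class total. A gene was called at 20 CPM or more in the higher group and at least 2-fold, without the 7 rule genes. No test was run because each group is 1 library. Shares across depths were read after thinning cells to 4200 UMIs. No doublet caller was run, and the removal of the 5% deepest cells served as an alternative. PBMC cells were clustered without the rule genes, ribosomal, mitochondrial, receptor segment and immunoglobulin genes, Xist and Y-linked genes (2000 variable genes, 30 components, 15 neighbours, Leiden resolution 0.8, scanpy 1.11.5, leidenalg 0.10.2). TMM factors came from edgeR 4.0.16 and were used for scaling only. The ratio script was tested on simulated counts. The members, gene lists and markers were chosen with earlier results of these data known.

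Genes named in the text are the 5 markers, the 5 excluded genes, the 15 highest and 15 lowest ratios at 50 CPM or more, up to 4 members of each of 24 lists by ratio, and the 10 leading genes of the cluster with most members. List members named beyond these were chosen after their values were seen. The library of tumour-infiltrating cells that the design names was not analysed here.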

Additional observations from a re-analysis of the deposited data

Results flagged for a closer look

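Only the 75 named genes outside the rule were searched here, and 26 of them were past 2-fold in PBMC. Of these, 9 lay on opposite sides in the 2 tumour libraries, past 2-fold in both. They were higher in the Gzmm+ Tcf7+ cells of TdLN than in the other TdLN cells. In PBMC they were lower in those cells than in the other cells. The share over all genes was not counted. Ccr2, Il18rap and Tbx21 reached 20 CPM in TdLN only in the rule cells. With 1 library each, the difference between the libraries was not tested. The chemokine Ccl5 had a log2 ratio of 2.10 in TdLN (2639 CPM against 614) and -1.21 in PBMC (6985 against 16175). Ccl4, a related chemokine, had 1.19 in TdLN and -1.75 in PBMC. Ccr2 had 2.33 and -1.47, the NK receptor gene Klrk1 1.06 and -1.18, and Il18rap, a chain of the IL-18 receptor, 1.12 and -1.35. The transcription factor gene Tbx21 had 1.46 and -1.36, and its target Ifng 1.28 and -2.27. Lgals1 had 1.06 and -1.59, and S100a6 1.62 and -1.03. The PBMC side of several of these depends on the cells compared: with the other cells weighted to the depth of the members Ccl5 was at 0.23, Klrk1 at 0.12 and S100a6 at 0.058, and among Trbv13-3 cells Ccl4 was at 0.069, Ccl5 at 0.16, Klrk1 at 0.20, Tbx21 at 0.28 and S100a6 at 0.063. Those values were positive, as in TdLN, but far smaller than the TdLN ratios, and they are given without intervals. The setting with Trbv13-3 cells held only 80 members. Lgals1, Ccr2, Il18rap and Ifng stayed on the lower side in PBMC under both settings.

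In the rule cells alone 4 of the genes were close in the 2 libraries: Klrk1 was at 98.1 CPM in TdLN and 95.8 in PBMC, Ccr2 at 21.9 and 27.9, Lgals1 at 427 and 352, and Il18rap at 27.3 and 30.98. In the other cells Klrk1 was at 47.1 CPM in TdLN and 217 in PBMC, Ccr2 at 4.36 and 77.2, Lgals1 at 205 and 1060 and Il18rap at 12.6 and 79.0. Ifng and Ccl4 differed in the rule cells as well, at 62.4 and 6.54 CPM and at 96.5 and 19.0 CPM, as did Ccl5, at 2639 and 6985, Tbx21, at 25.9 and 12.8, and S100a6, at 323 and 523. Cells with Zeb2 or S1pr5 were 131 of 6265 in TdLN and 2385 of 5652 in PBMC. Their part in the opposite sides was not tested.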

How the results depend on the processing

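The share of PBMC cells that met the rule was 3.89% under stricter cell filters (1000 genes or more, mitochondrial counts of 5% or less), 2.44% with at least 2 UMIs of both genes and 3.24% after thinning. The counts of genes at least 2-fold higher and lower, 8 and 54, became 14 and 85 with at least 2 UMIs, 19 and 147 after thinning, 14 and 121 with equal weight per cell, 1743 and 807 with no minimum CPM and 1 and 14 at 100 CPM or more, where fewer genes enter. TMM factors gave 13 higher, totals without ribosomal protein and mitochondrial genes 33 higher, and both moved the median of all genes, from -0.16 to -0.01 and 0.04. With the other cells weighted to the members' depth 7 were lower, with Ccl5 at 0.23, Cxcr6 at 0.066, Klrk1 at 0.12, Klre1 at 0.53 and S100a6 at 0.058. Among cells whose beta V UMIs were all Trbv13-3, chosen after seeing the data, 24 were lower, with Ccl4 at 0.069, Ccl5 at 0.16, Bcl2a1b at 0.15, Cxcr6 at 0.19, Klrk1 at 0.20, Tbx21 at 0.28, Klre1 at 0.33 and S100a6 at 0.063. The cause of these changes was not tested. Fcgrt stayed between 1.34 and 1.79 and Xcl1 between 1.31 and 2.36 under every setting tried that gives a ratio. Reading the rule from a random part of the UMIs and the values from the remainder gave 10 and 59. Removing cells with a platelet gene UMI, also chosen after seeing the data, gave 9 and 57. The Trbv13-3 share was 82.5% with 1 vote per cell, and the leading cluster held 65.8% and 62.0% of members at resolutions 0.5 and 1.2. No paired analysis was possible because each group is 1 library.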

Other observations

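Further gene lists were compared between the Gzmm+ Tcf7+ cells and the other PBMC cells. Of 16 stem and memory genes 13 were higher and 3 lower, 1 at least 2-fold higher, with a median of 0.32. Of 17 lymph node homing and circulation genes 5 were higher and 12 lower, with 1 and 3 past 2-fold and a median of -0.38. Of 5 tissue residency genes 1 was higher and 4 lower, 2 past 2-fold on the lower side, with a median of -0.43. Of the 19 T cell receptor complex genes, 16 were lower than in the other PBMC cells, with a median of -0.29 beside -0.16 for all genes and none past 2-fold. All 15 MHC class I presentation genes were lower, with a median of -0.32 and none past 2-fold, Tap1, a peptide transporter subunit, being at 56.6 CPM against 84.4. H2-Q7 was at 781 CPM against 1154, and the H2-Q genes may share reads. Over cells with Tcf7 alone these medians were -0.07 and -0.10.

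Most exhaustion genes were at low levels. Of 19 inhibitory receptor and exhaustion genes besides the rule genes, 5 reached 20 CPM in either group. Of these 3 were higher in members and 2 lower, 1 at least 2-fold, with a median of 0.18 beside -0.16 for all genes. Over cells with Tcf7 alone all 4 measured genes were higher, 2 at least 2-fold, with a median of 0.83. Over the Zeb2 or S1pr5 class 2 were higher and 4 lower (median -1.39), and over the Gzmk class 1 was higher and 6 lower (median -2.08). Pdcd1, which encodes PD-1, had 1 count in the 284 cells, and Tox was at 12.5 CPM (9.09 to 16.8) against 20.3 in the other cells. Of 15 dissociation and stress genes 5 were higher and 10 lower, with a median of -0.08. Fosb was at 27.0 CPM against 14.5 and Ier3 at 6.82 against 21.4.

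Tcrg-C2, a gamma receptor constant gene, was at 20.2 CPM (15.8 to 25.5) in members and 19.4 in the other cells, but at 6.1 CPM in cells with Tcf7 alone and 54.8 CPM in the Gzmk class.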
